A study of Mus musculus with 6 samples.

Results

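The 9 genes described here belong to the Reelin and CDK5 signalling routes, which guide the migration of cortical neurons, and were taken by symbol from the deposited table of 24041 genes. All 9 of 9 were found: the ligand gene Reln, the receptor genes Lrp8 and Vldlr, the adaptor gene Dab1, the kinase gene Fyn, the adaptor genes Crk and Crkl, the kinase gene Cdk5 and its activator gene Cdk5r1. All 9 also passed the filter on low counts. The libraries measured messenger RNA of mouse cerebral cortex cells that had received plasmid DNA by electroporation and were sorted by the fluorescence of GFP. The plasmids were GFP with mutant PRPF6 in 3 libraries, and GFP with wild-type PRPF6 in the other 3, where PRPF6 is a spliceosome protein. Both groups therefore carried GFP and a PRPF6 plasmid, and no group went without one. Not given in the sources used here are the mutation, the promoter of the plasmids, the species of the PRPF6 sequence, the mouse strain and the age. Nor is it said whether each library came from a separate animal, so p-values measure only library-to-library spread, part of which may be technical.

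Reelin is a large secreted protein, made in the embryonic cortex mainly by Cajal-Retzius cells of the outermost layer. It binds the receptors ApoER2, encoded by Lrp8, and VLDLR on migrating neurons, and Src-family kinases such as FYN then phosphorylate the adaptor DAB1 on tyrosine. Phosphorylated DAB1 recruits CRK and CRKL, which pass the signal to RAP1 and cell adhesion. CDK5 is a kinase of postmitotic neurons that is active only when bound to an activator such as p35, the product of Cdk5r1, and it acts on microtubule and adhesion proteins in parallel with Reelin. Loss of Reln, of Dab1, of both receptors, of Cdk5 or of Cdk5r1 disturbs cortical layering in mice.

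The total expected counts were 57475218, 48787926 and 45115122 with mutant PRPF6 and 47564897, 60600617 and 49484457 with wild-type PRPF6. Here and below, single values of a group follow the order of replicates 1, 2 and 3. Levels are given in CPM, that is, counts relative to the TMM-scaled library total. Prpf6 itself was at 134 ± 10.01 CPM with mutant and 141 ± 22.6 CPM in wild-type PRPF6 libraries (SD, n = 3 each), so its counts did not separate the groups. Wild-type replicate 3 stood apart in markers of other cells: its 9 red blood cell markers summed to 16040 CPM and its 6 meningeal fibroblast markers to 1631 CPM, against 76.1 to 2501 CPM and 11.9 to 161 CPM in the other libraries. Mutant replicate 2 stood apart in microglia, whose 5 markers summed to 423 CPM there and to 17.0 to 165 CPM elsewhere. Mutant replicate 1 differed most from the other libraries. In pairs of libraries, chi-square per degree of freedom was 259 to 338 with mutant replicate 1 and 127 to 235 without it. Of the marker sums below, it had the lowest for young neurons and the highest for radial glia and Cajal-Retzius cells. The 7 interneuron markers summed to 729.9, 401 and 291 CPM with mutant and 140, 409 and 868 CPM with wild-type PRPF6. Of the 10 markers of young excitatory neurons, 9 had lower and 1 a higher fitted mean with mutant PRPF6. They summed to 2626, 4476 and 3521 CPM with mutant and 7171, 4412 and 4970 CPM with wild-type PRPF6, and 0 of the 10 were at 0 in any library. All 9 radial glia markers had a higher fitted mean, with sums of 4523, 2456 and 3806 CPM with mutant and 2014, 2510 and 1808 CPM with wild-type PRPF6. The part of these marker differences in the values below was not tested. In sorted cells measured in bulk, fewer cells of a type and less RNA per cell cannot be told apart.

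The 2 members whose mutant libraries all lay below the wild-type libraries were Reln and Vldlr, a pattern that 4.54% of all tested genes had. Their promoters are shown because of that, as the 250 bases before the start (RefSeq, GRCm38.p6, 5′ to 3′). Capitals mark GC boxes, the letters GGGCGG or CCGCCC, searched on both strands with overlaps allowed. The Reln window is chr5:22344706-22344955 on the minus strand, and the Vldlr window, before the outer of 2 annotated starts, is chr19:27216234-27216483 on the plus strand.
Reln: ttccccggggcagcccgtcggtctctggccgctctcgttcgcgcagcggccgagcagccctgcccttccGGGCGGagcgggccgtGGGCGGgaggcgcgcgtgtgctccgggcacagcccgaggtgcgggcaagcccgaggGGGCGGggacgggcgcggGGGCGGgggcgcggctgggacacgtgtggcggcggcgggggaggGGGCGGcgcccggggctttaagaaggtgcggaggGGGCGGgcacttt
Vldlr: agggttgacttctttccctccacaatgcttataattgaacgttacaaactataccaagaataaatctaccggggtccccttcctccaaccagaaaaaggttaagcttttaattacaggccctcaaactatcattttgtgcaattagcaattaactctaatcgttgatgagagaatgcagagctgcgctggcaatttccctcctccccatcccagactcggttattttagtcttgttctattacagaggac
The Reln window held 6 GC boxes, 37 CpG dinucleotides and 80.0% G and C. The Vldlr window shown held 0 GC boxes, 5 CpG dinucleotides and 41.6% G and C, and the window before the inner Vldlr start, which is not shown, held 1, 18 and 66.4%. Of 32851 such windows in the RefSeq table, 32.7% held at least 1 GC box and 0.886% at least 6, with a median of 6 CpG dinucleotides. Such matches describe the letters only. Promoters were matched for 7 of the 9 members.

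No member passed the test of mutant against wild-type PRPF6. All 9 members had a lower fitted mean with mutant PRPF6. Their log2 differences ran from −0.84 for Reln to −0.018 for Crk, around a median of −0.23. Adjusted over all 14451 genes tested with edgeR's quasi-likelihood test, 0 of 9 members and 0% of all genes had an adjusted p under 0.05 (adjusted p = 1.00 for each member). DESeq2 and limma-voom also called 0 of the 9 members, while of all genes DESeq2 called 12 and limma-voom 0. Counts are summed over the transcripts of a gene, so they say nothing of its splice forms. At an unadjusted p under 0.05 stood 3 of 9 members, Reln, Vldlr and Cdk5r1, all lower, where 3.38% of all genes stood in either direction and 1.2% were lower. The same threshold was passed by 3 of the 10 young excitatory neuron markers, all lower, and 5 of the 9 radial glia markers, all higher. A fitted difference below 0 was found for 50.2% of all tested genes, whose median was −0.0013. The members share libraries and were chosen with earlier results known, so the count of 9 is a description. With replicate 1 of either group left out it was 6 of 9, and with replicate 3 of either group left out it was 8 of 9. The plot of CPM by library shows the values behind these counts.

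**Figure D1:**
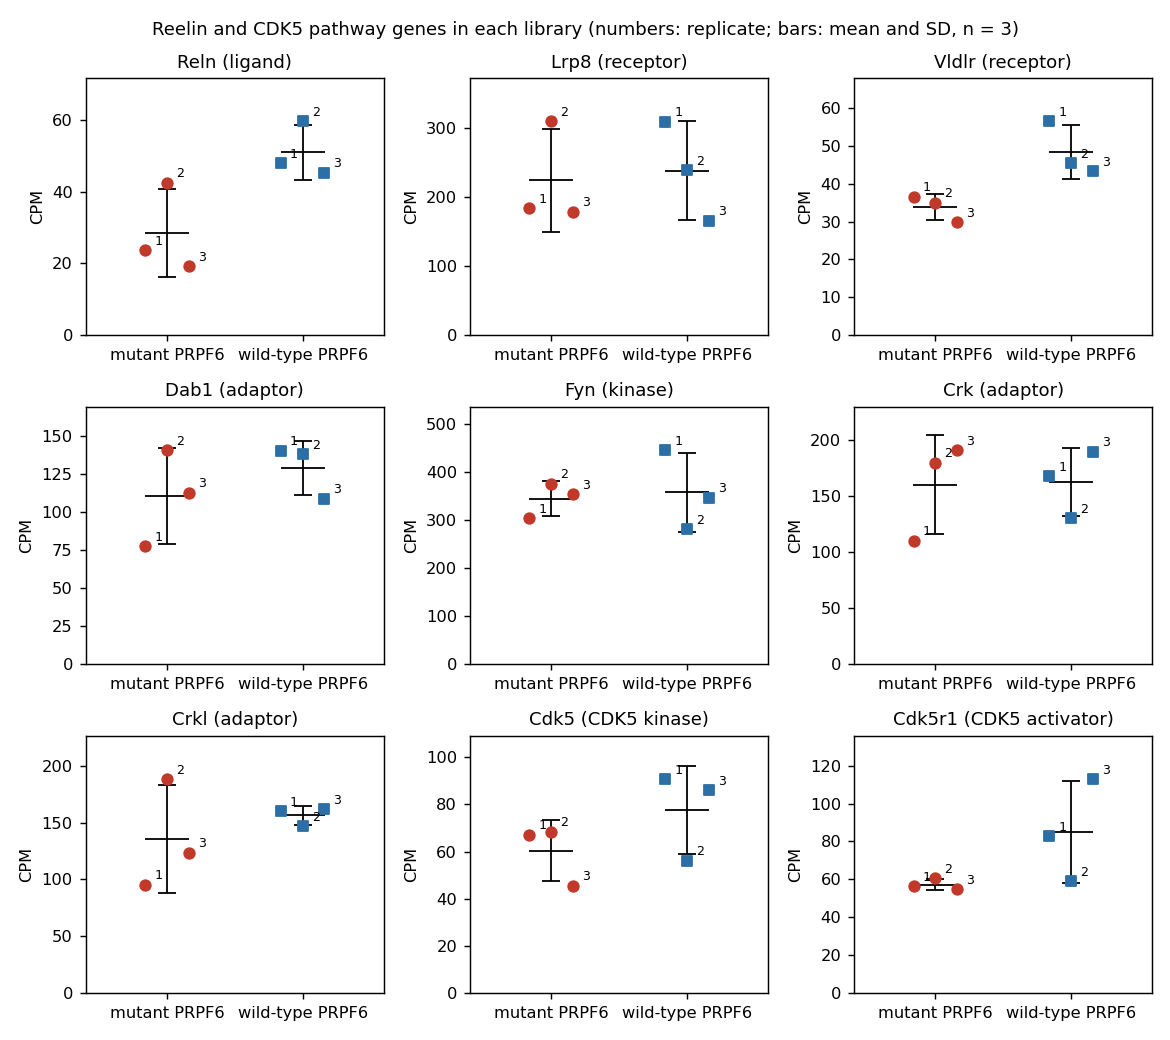
CPM of the 9 genes (vertical axes, each from 0) in mutant PRPF6 (circles) and wild-type PRPF6 libraries (squares), with numbers for the replicate and bars for the mean and SD (n = 3). In Reln and Vldlr the highest mutant library, at 42.6 and 36.6 CPM, lies below the lowest wild-type library, at 45.3 and 43.2 CPM, and in the other 7 genes the groups overlap.

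Reln, the ligand (chromosome 5, 21884454 to 22344702, minus strand, GRCm38), was at 23.7, 42.6 and 19.2 CPM with mutant PRPF6, against 48.0, 59.7 and 45.3 CPM with wild-type PRPF6. The groups did not overlap, though mutant replicate 2 lay close to the wild-type libraries. The means were 28.5 ± 12.4 CPM with mutant and 51.0 ± 7.66 CPM with wild-type PRPF6 (SD, n = 3 each), a fitted log2 difference of −0.84 ± 0.32 (SE; unadjusted 95% interval −1.58 to −0.097; edgeR unadjusted p = 0.0312, adjusted p = 1.00), or 0.559-fold. A two-sided exact permutation test gave p = 0.10, the smallest that 3 against 3 libraries allow. The difference was −1.25 without mutant replicate 2 and −0.62 without mutant replicate 3. Counts of Reln ran from 843, the smallest of any of the 9 members in a library, to 3641. The SD of its level was 43.6% of the mean between mutant and 15.0% between wild-type libraries.

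Markers of Cajal-Retzius cells, the main source of Reelin, were set beside Reln. Of the 9 markers, 7 had a higher and 2 a lower fitted mean with mutant PRPF6 (median log2 difference 0.29), and 0 were at 0 in any library. Among the 7, Lhx5 and Nhlh2 were nearly level, with log2 differences of 0.0055 and 0.0028. An unadjusted p under 0.05 (edgeR) was found for 0 of the 9. The 9 markers summed to 309, 108 and 139 CPM with mutant and 79.4, 167 and 230 CPM with wild-type PRPF6. The library with the highest sum, mutant replicate 1, had the second lowest Reln level, and wild-type replicate 1, with the lowest sum, had the second highest. A part of Cajal-Retzius cell content in the Reln values was not tested. Lhx1, a LIM-homeobox gene among the 7, was at 32.1, 7.71 and 25.0 CPM with mutant and 0.150, 11.3 and 21.8 CPM with wild-type PRPF6. Trp73, a transcription factor gene and 1 of the 2 with a lower fitted mean, was at 18.1, 10.9 and 0.0912 CPM with mutant and 5.97, 25.1 and 12.2 CPM with wild-type PRPF6. Like Reln, Trp73 was lowest in mutant replicate 3 and highest in wild-type replicate 2. Among the mutant libraries Trp73 was highest in replicate 1, and Reln in replicate 2. Tbr1, a T-box factor of early-born cortical neurons that is known to activate Reln in mice, is a marker on the young neuron list and is named here after its values were seen. It was at 61.6, 188 and 143 CPM with mutant and 265, 200 and 231 CPM with wild-type PRPF6, again without overlap (log2 difference −0.82 ± 0.36, SE; edgeR adjusted p = 1.00). Within the groups the orders of the 2 genes differed: Reln was lowest in mutant replicate 3 and Tbr1 in mutant replicate 1, and wild-type replicate 2 held the highest Reln and the lowest wild-type Tbr1 level. A part of Tbr1 in the Reln values was not tested.

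**Figure D2:**
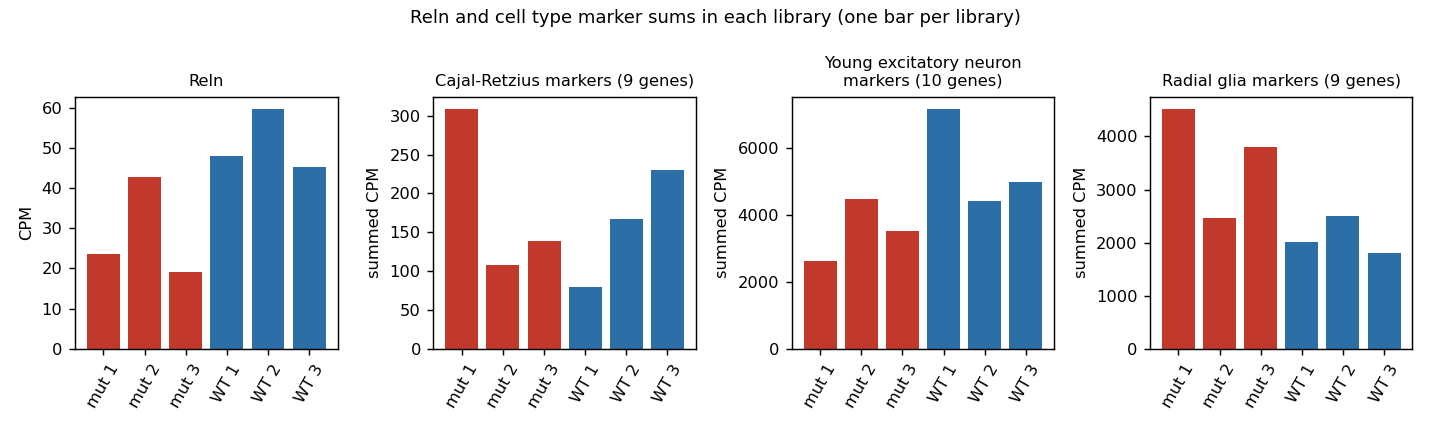
Reln in CPM and the summed CPM of marker genes of Cajal-Retzius cells, young excitatory neurons and radial glia, with a bar for each library (red for mutant, blue for wild-type PRPF6). Cajal-Retzius markers were highest in mutant replicate 1, at 309 CPM, where Reln was at 23.7 CPM, and young neuron markers were lowest there, at 2626 CPM.

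Of the 2 receptor genes, Vldlr had groups that lay apart and Lrp8 had groups that overlapped, and the difference between the genes was not tested. Vldlr (chromosome 19, 27216484 to 27254231, plus strand), which encodes the very-low-density lipoprotein receptor, was at 36.6, 35.0 and 29.9 CPM with mutant PRPF6 and at 56.5, 45.4 and 43.2 CPM with wild-type PRPF6. The groups did not overlap and were separated by 6.68 CPM. The means were 33.8 ± 3.50 CPM with mutant and 48.4 ± 7.12 CPM with wild-type PRPF6 (SD, n = 3 each), which gave a log2 difference of −0.52 ± 0.21 (SE; 95% interval −1.003 to −0.029; edgeR unadjusted p = 0.0404, adjusted p = 1.00), or 0.699-fold. The two-sided exact permutation p was 0.10. Leaving out each library in turn gave −0.59 to −0.39, always lower with mutant PRPF6.

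Lrp8 (chromosome 4, 107802261 to 107876840, plus strand), the gene of ApoER2, was at 184, 310.0 and 179 CPM with mutant and 309, 239 and 166 CPM with wild-type PRPF6. The groups overlapped over nearly their whole range, with mutant replicate 2 and wild-type replicate 1 side by side at the top. The log2 difference was −0.086 ± 0.29 (SE; 95% interval −0.75 to 0.58), and its sign turned when mutant replicate 1 (0.037), mutant replicate 3 (0.051) or wild-type replicate 1 (0.15) was left out. In 3 of the 6 libraries its expected count was not whole, so some of its reads were shared with other genes. Per kilobase of annotated exon, Lrp8 stood 4.82, 8.48 and 5.73 times as high as Vldlr in mutant and 5.24, 5.05 and 3.67 times as high in wild-type replicates 1, 2 and 3. The ratio was 6.34 ± 1.90 with mutant and 4.65 ± 0.859 with wild-type PRPF6 (SD, n = 3 each), and the groups overlapped.

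Downstream of the receptors, Dab1 (chromosome 4, 103619359 to 104744844, plus strand), the adaptor that links them to the kinases, was at 77.5, 141 and 113 CPM with mutant and 140.3, 138 and 109 CPM with wild-type PRPF6. Mutant replicate 1 lay below every other library, and mutant replicate 2 lay level with the highest wild-type library. The means were 110.4 ± 31.7 CPM with mutant and 129 ± 17.6 CPM with wild-type PRPF6 (SD, n = 3 each), which gave a log2 difference of −0.23 ± 0.24 (SE; 95% interval −0.77 to 0.32). Without mutant replicate 1 the difference was −0.026, and without mutant replicate 2 it was −0.44.

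Fyn (chromosome 10, 39368855 to 39565381, plus strand), a Src-family kinase that phosphorylates DAB1, was at 304, 376 and 354 CPM with mutant and 446, 281 and 347 CPM with wild-type PRPF6. All mutant libraries lay within the wild-type range, and the log2 difference was −0.053 ± 0.19 (SE; 95% interval −0.49 to 0.39). Its sign turned when mutant replicate 1 (0.029) or wild-type replicate 1 (0.14) was left out.

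The adaptors CRK and CRKL bind phosphorylated DAB1 and can stand in for each other in mice. Crk (chromosome 11, 75679259 to 75706908, plus strand) was at 110.1, 180 and 191 CPM with mutant and 167, 130 and 190 CPM with wild-type PRPF6. Mutant replicate 1 was the lowest library and mutant replicate 3 the highest, so the groups overlapped fully (log2 difference −0.018 ± 0.24, SE; 95% interval −0.57 to 0.54). The sign turned without mutant replicate 1 (0.19), wild-type replicate 1 (0.0060) or wild-type replicate 3 (0.11). Crkl (chromosome 16, 17451987 to 17487434, plus strand) was at 95.4, 188 and 124 CPM with mutant and 160.2, 147 and 162 CPM with wild-type PRPF6. Its wild-type libraries agreed within a spread of 5.25% of their mean, while its mutant libraries lay on both sides of them with a spread of 35.1% (log2 difference −0.20 ± 0.24, SE; 95% interval −0.76 to 0.36). Without mutant replicate 2 the difference was −0.51 and without mutant replicate 1 it was −0.0046.

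Cdk5r1 (chromosome 11, 80477023 to 80481184, plus strand), which encodes the CDK5 activator p35, was at 56.3, 60.6 and 54.9 CPM with mutant and 82.8, 58.9 and 113 CPM with wild-type PRPF6. The mutant libraries lay close together, and wild-type replicate 2 lay among them. The means were 57.3 ± 2.94 CPM with mutant and 84.9 ± 27.1 CPM with wild-type PRPF6 (SD, n = 3 each), which gave a log2 difference of −0.57 ± 0.25 (SE; 95% interval −1.13 to −0.0015; edgeR unadjusted p = 0.0495, adjusted p = 1.00). The two-sided exact permutation p was 0.20. The highest value came from wild-type replicate 3, the library with the high red blood cell and meningeal markers. Wild-type replicate 3 also had the highest sum of interneuron markers, 868 CPM, and young neuron markers summed to 4970 CPM there. A part of any of these markers in the Cdk5r1 values was not tested. Without wild-type replicate 3 the difference was −0.30, against −0.78 without wild-type replicate 2.

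Cdk5 (chromosome 5, 24418241 to 24423530, minus strand) was at 67.1, 68.4 and 45.4 CPM with mutant and 90.8, 56.2 and 86.1 CPM with wild-type PRPF6. Mutant replicate 3 was the lowest library, and wild-type replicate 2 lay below the other 2 mutant libraries (log2 difference −0.36 ± 0.25, SE; 95% interval −0.95 to 0.22). The kinase and its activator shared their wild-type order in part, since both had their lowest wild-type value in replicate 2. Per kilobase of exon, Cdk5r1 stood at 0.437, 0.461 and 0.630 of the Cdk5 level in mutant and 0.475, 0.546 and 0.684 of it in wild-type replicates 1, 2 and 3. The ratio was 0.509 ± 0.105 with mutant and 0.568 ± 0.106 with wild-type PRPF6 (SD, n = 3 each), a difference smaller than the spread between replicates.

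**Figure D3:**
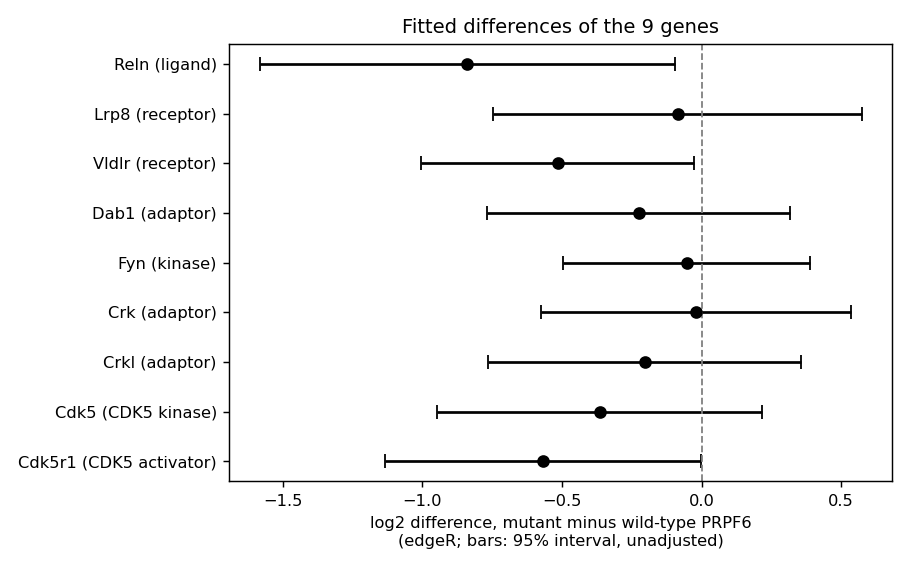
Fitted log2 differences of the 9 genes, mutant minus wild-type PRPF6 (horizontal axis), as points with unadjusted 95% intervals from edgeR. All points lie below 0, the intervals of Reln, Vldlr and Cdk5r1 end below 0 (at −0.097, −0.029 and −0.0015), and the other 6 intervals hold 0.

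The 9 genes did not share a single pattern over the libraries. After each gene's log2 CPM was centred on its mean over the 6 libraries, mutant replicate 1 was below that mean for 9 of 9 genes, with a mean of −0.36, and wild-type replicate 1 above it for 9 of 9, with a mean of 0.32. Cdk5 was almost level with its mean in mutant replicate 1, at −0.001. The same counts over all tested genes were not made. Mutant replicate 2 was above the gene's mean for 7 of 9 genes and held the highest value of Lrp8, Dab1 and Crkl. Mutant replicate 3 held the lowest value of Reln, Vldlr, Cdk5 and Cdk5r1. Mutant replicate 1, the library that differed most from the others, held the lowest value of Dab1, Crk and Crkl. These library means took no account of cell type markers, and mutant replicate 1 and wild-type replicate 1 were also the libraries with the lowest and highest sums of young neuron markers, 2626 and 7171 CPM. The part of that in the members' values was not tested.

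**Figure D4:**
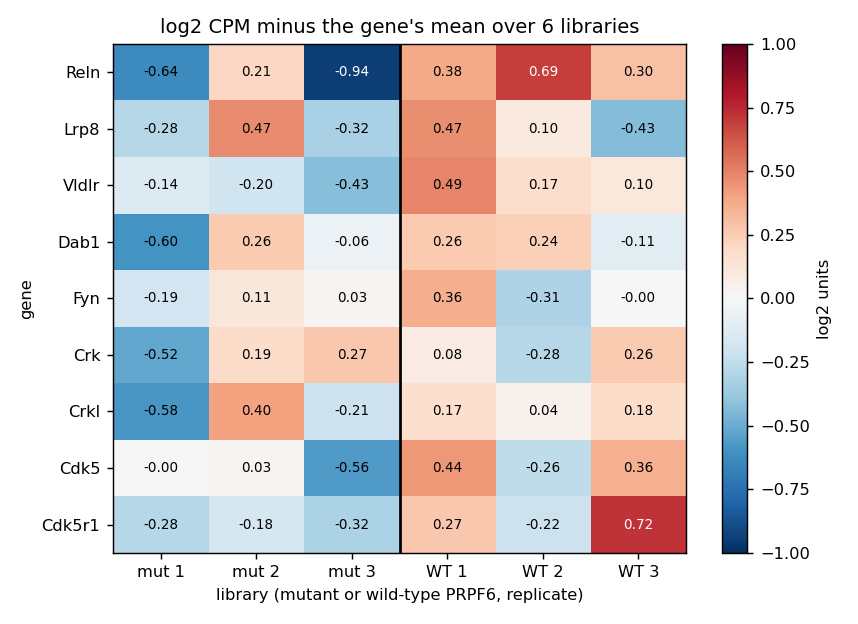
Log2 CPM of the 9 genes (rows) in each library (columns, mutant PRPF6 left of wild-type PRPF6) minus the gene's mean over 6 libraries, with red above and blue below the mean. The column of mutant replicate 1 is below 0 throughout, though for Cdk5 only just, at −0.001. That of wild-type replicate 1 is above 0 throughout, while mutant replicate 2 is above 0 for 7 of 9 genes.

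Levels were compared between genes per kilobase of the annotated exons joined over all transcripts (GENCODE M21, GRCm38). Fyn was highest, at 80.6 ± 13.3 CPM per kilobase (SD over 6 libraries), and its range of 64.4 to 102 did not overlap that of the next gene. Crk (34.1 ± 7.11), Cdk5 (31.8 ± 7.97), Crkl (29.0 ± 6.47), Lrp8 (22.0 ± 6.26), Cdk5r1 (17.1 ± 5.51) and Dab1 (15.1 ± 3.17) followed, and each neighbour in this order overlapped the next. Vldlr, at 4.08 ± 0.935, and Reln, at 1.67 ± 0.649 CPM per kilobase, were the lowest, with ranges apart from their neighbours. Measured per kilobase of the longest coding transcript, Fyn stayed highest and Reln lowest, Lrp8 was in place 3 and Dab1 in place 6, and the ranges of Vldlr and Reln overlapped. The 2 genes whose groups did not overlap were thus the 2 of lowest level on this scale.

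**Figure D5:**
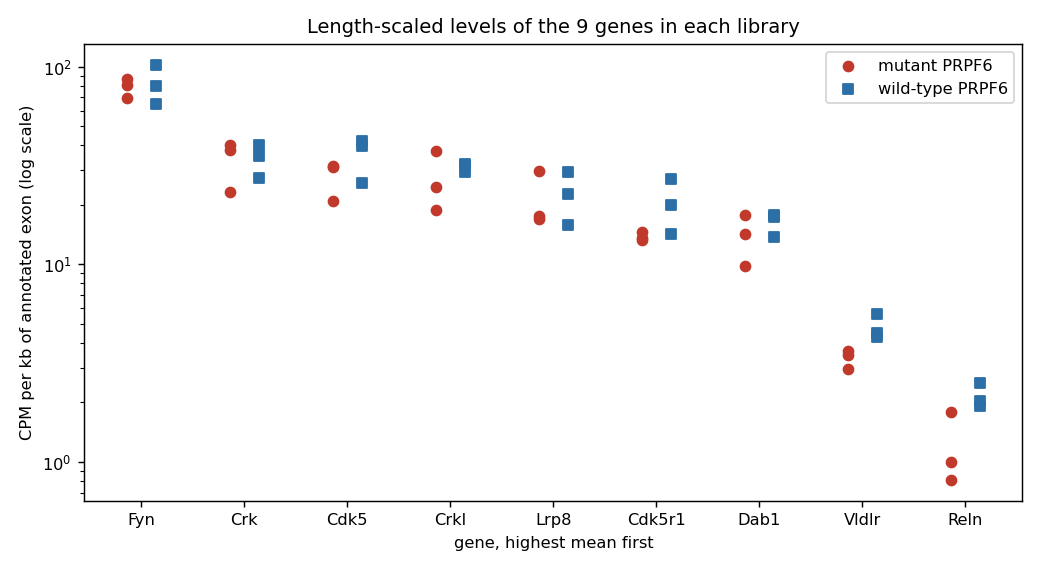
CPM per kilobase of annotated exon (log axis) of the 9 genes, in order of their mean, with a point for each mutant PRPF6 (circles) and wild-type PRPF6 library (squares). Fyn lies apart at the top, at 64.4 to 102, and Vldlr and Reln lie apart at the bottom, at 2.97 to 5.61 and 0.810 to 2.52.

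Of 48 other genes of these routes, listed with earlier results of these data known, 0 passed the test after adjustment over all genes, 23 had a higher and 25 a lower fitted mean with mutant PRPF6, and the median log2 difference was −0.016. At an unadjusted p under 0.05 stood 1 higher and 2 lower genes, where 2.18% and 1.2% of all tested genes stood, and a fitted difference above 0 was found for 49.8% of all. The median lay close to that of all tested genes. Map1b, a microtubule-associated protein gene whose product CDK5 phosphorylates, was at 2954, 2366 and 2105 CPM with mutant and 3679, 3238 and 3109 CPM with wild-type PRPF6 (log2 difference −0.43 ± 0.16, SE). Socs7, whose product helps to degrade phosphorylated DAB1, was at 17.6, 16.4 and 14.3 CPM with mutant and 36.0, 21.6 and 22.9 CPM with wild-type PRPF6 (−0.74 ± 0.30, SE). Akt1, a kinase that Reelin signalling activates, was at 481, 496 and 473 CPM with mutant and 348, 402 and 396 CPM with wild-type PRPF6 (0.34 ± 0.13, SE). In these 3 genes the groups did not overlap. Non-overlapping groups were found for 9.14% of all tested genes, 4.6% with the mutant libraries above and 4.54% with them below.

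The next 3 genes of that list by p-value were Nectin3, Src and Mapt. Nectin3, an adhesion gene of the RAP1 arm, was at 88.5 ± 15.1 CPM with mutant and 62.4 ± 17.6 CPM in wild-type PRPF6 libraries (SD, n = 3 each). Src, a kinase related to Fyn that also phosphorylates DAB1, was at 36.8 ± 6.79 CPM with mutant and 50.8 ± 8.81 CPM in wild-type libraries, and Mapt, the tau gene and a CDK5 substrate, at 83.4 ± 62.7 CPM with mutant and 162 ± 72.5 CPM with wild-type PRPF6. Mapt is also among the young neuron markers. Their groups overlapped, and their adjusted p-values were 1.00 (edgeR). By the function within the list, the 20 genes downstream of DAB1 were split 10 higher and 10 lower, and the 19 CDK5 activators, partners and substrates 9 higher and 10 lower. Of the 3 genes of DAB1 turnover, 1 was higher and 2 lower, and of the 6 genes of other ligands and receptor partners, 3 were higher and 3 lower.

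Genes closest in pattern were sought among 11351 with a mean log2 CPM of 1 or more, leaving out Gm, Rik and LOC symbols. Closeness was the mean absolute difference of centred log2 CPM over the 6 libraries, given as a description. For Reln the closest genes were Man2a1 (0.11 log2 units), Garnl3 (0.12), Dixdc1 (0.14), Atp2b4 (0.14) and Zfp217 (0.16). Dixdc1 was at 22.2, 39.0 and 21.2 CPM with mutant and 37.2, 48.4 and 39.2 CPM with wild-type PRPF6. For Dab1 they included Slc41a1 (0.052), Trim37 (0.055), Atp13a3 (0.058) and Trip11 (0.058). Trim37 was at 131, 217 and 175 CPM with mutant and 221, 213 and 183 CPM with wild-type PRPF6. In the genes named for both, mutant replicates 1 and 3 were below mutant replicate 2, as in Reln and Dab1, whose pattern they were chosen to match.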

How the data were processed

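Messenger RNA was measured in 6 libraries, 3 with mutant and 3 with wild-type PRPF6, grouped by the titles in the labels. Per the labels' protocols, cDNA was amplified from picogram amounts of RNA with a SMART-Seq low-input kit, so reads are not independent molecules. The authors deposited expected counts, unscaled, 1 column per library, which the submitters' processing notes tie to RSEM and mm10. The version, aligner, annotation, strand setting and filters: not given in the sources used here. Without a strand setting, reads in the 246 exonic bases that Reln shares with Gm10475, an antisense gene, cannot be assigned to either. The annotated exons of Reln cover 23738 bases.

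Expected counts were rounded. Of 24041 genes 14451 passed filterByExpr. Libraries were scaled with TMM (factors 0.972 to 1.02, so that 1 count was worth 0.0164 to 0.0228 CPM) and compared in R 4.3.3 by the robust quasi-likelihood F-test of edgeR 4.0.16, two-sided, with no covariate, a Benjamini-Hochberg adjustment over all tested genes and a threshold of 0.05. Log2 CPM used a prior count of 2. The steps were also tested on simulated data. The planted differences were larger than those fitted for the members, so that test does not show whether differences of their size would be found. Alternatives were DESeq2 size factors, no low-count filter, DESeq2 1.42.0, limma-voom (limma 3.58.1), a replicate block and leaving out each library. Coordinates and lengths come from GENCODE M21, matched by symbol. The members and lists were chosen with earlier results of these data known. All 9 members are named. From the wider list, up to 6 genes were named, called ones first and then those of smallest unadjusted p, and for Reln and Dab1 the 5 genes closest in pattern whose mean log2 CPM was 1 or more. Of these, 1 gene that this rule names is not reported here.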

Additional observations from a re-analysis of the deposited data

How the results depend on the processing

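Under 11 alternatives, 91 of 99 member values kept their direction, and 0 members passed the adjusted threshold in any. The 8 reversed values all came from leaving out a library. Alternatives that kept all 6 libraries fitted the same counts again, so their directions say little of how stable the values are. Under leaving out each library in turn, the log2 differences ran from −1.25 to −0.62 for Reln, −0.59 to −0.39 for Vldlr, −0.78 to −0.30 for Cdk5r1, −0.55 to −0.20 for Cdk5, −0.51 to −0.0046 for Crkl and −0.44 to −0.026 for Dab1. Those of Lrp8 (−0.39 to 0.15), Fyn (−0.20 to 0.14) and Crk (−0.16 to 0.19) changed sign, and the cause was not tested. Of all genes, DESeq2 called 12 (815 at an unadjusted p under 0.05), none of them a member, against 0 with edgeR (489) and 0 with limma-voom (551). DESeq2 gave no adjusted p for 9249 genes.

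With the replicate number as a block, 0 genes passed and 307 stood at an unadjusted p under 0.05. Under the block, the log2 difference was −0.91 for Reln, −0.51 for Vldlr and −0.52 for Cdk5r1. Same-numbered libraries deviated from their group means with correlations across genes of 0.054, 0.061 and −0.26 for replicates 1, 2 and 3. Those of differently numbered libraries ran from −0.25 to 0.26. In both groups, replicates 1, 2 and 3 carry the numbers 1, 4 and 5 in the deposited column names. With 3 libraries in each group, these correlations cannot show whether the numbers pair the samples. The unadjusted count of 3 members was 1 under the block and limma-voom, 2 with DESeq2 size factors, and 0 to 2 when a library was left out (0 for mutant replicate 3 or wild-type replicate 1, 2 for mutant replicate 2 and 1 for each of the others). The smallest count of a member in a library was 843, and since reads are amplified copies, their number does not give the number of molecules behind a value.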
